A study of Mus musculus with 16 samples.

Results

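The AP-1 genes examined here were the 8 members Fos, Fosb, Fosl1, Fosl2, Jun, Junb, Jund and Atf3, out of 21900 protein-coding genes in the RefSeq table used. Peaks of MyoD, the transcription factor that drives the muscle programme, and of H3K27ac, a histone acetylation found at active promoters and enhancers, were merged over the libraries of each antibody. A merged region was given to a member when it overlapped the gene body, or when the member was the nearest protein-coding gene within 50 kb. This left 17 of 24420 MyoD regions and 40 of 60038 H3K27ac regions at AP-1 genes.

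Chromatin immunoprecipitation sequencing had been performed on the stem cells of skeletal muscle, called satellite cells, taken from the hindlimb of C57BL/6 mice and grown in culture. For each antibody there were 2 LncMyoD-KD libraries, labelled as a knockdown of LncMyoD, a long noncoding RNA, and 2 Ctrl libraries, labelled as control. The treatment label gives 48 h of siRNA against LncMyoD for all samples, Ctrl included, so the groups rest on the titles and genotype labels. What was given to the Ctrl cells is not stated in the sources used here. The 8 input samples were not analysed here. No label ties replicates to different mice or dishes, and a p-value here measures the spread between these libraries alone, which may be technical.

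AP-1 is a dimer of basic leucine zipper proteins. Members of the Fos family pair with members of the Jun family, Jun proteins can also pair among themselves, and Atf3 is a stress-induced relative that pairs with Jun proteins. Many AP-1 genes are immediate early genes, switched on by growth factor and stress signals, and satellite cells are known to induce Fos and Jun as they leave quiescence.

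The peak lists held 16524 and 13146 MyoD peaks in LncMyoD-KD replicates 1 and 2, against 17818 and 17649 in Ctrl replicates 1 and 2. The H3K27ac lists held 54082 and 39964 peaks in LncMyoD-KD and 46259 and 53048 in Ctrl. LncMyoD-KD replicate 2 therefore gave the shortest list of both antibodies. The lists hold no read counts, so depth is unknown, and a missing peak does not show that binding or acetylation was absent. As a check of the cell type, all 8 muscle stem cell and myoblast markers tested, Pax7, Myf5 and Myod1 among them, had an H3K27ac region of all 4 libraries over the gene body. The same held for 1 of 2 fibro-adipogenic, 2 of 2 endothelial, 1 of 2 immune, 2 of 2 mural and 1 of 2 Schwann cell markers, and Pdgfra and Ptprc had no region of either antibody. The part of other cells in the values at AP-1 genes was not tested.

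Each fold enrichment below is the authors' peak-caller value, a linear ratio over background for the highest peak of a region, and belongs to its own list. It describes and ranks peaks within a library, and values from different libraries were not put on a common scale.

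Of the 17 MyoD regions at AP-1 genes, 6 held a peak in all 4 libraries, which is 35.3% (95% Clopper-Pearson interval 14.2 to 61.7%) beside 40.8% of all MyoD regions. Intervals over regions cover counting error only. They treat regions as independent, although many lie at the same gene, so they are no test against the background. There were 0 LncMyoD-KD-only regions, defined as a peak in both LncMyoD-KD libraries and in neither Ctrl library, beside a background of 0.725%. A count of 0 among 17 allows a share of up to 17.6% when 3 is divided by the number of regions. By the Clopper-Pearson interval it allows up to 19.5%. The reverse, a Ctrl-only region, occurred 1 time, at Junb, which is 5.88% beside a background of 4.53%. Both group-only shares lay near the background. Of the other regions, 5 held peaks in 3 libraries, 1 in 2 libraries and 4 in a single library.

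The number of MyoD peaks at AP-1 genes was 12 and 9 in LncMyoD-KD replicates 1 and 2, and 13 and 13 in Ctrl replicates 1 and 2. The groups did not overlap as deposited, but had a value in common with a −log10 q of at least 5, with equal peak numbers per list and with a 10 kb limit. The deposited means were 10.5 ± 2.12 in LncMyoD-KD and 13 ± 0 in Ctrl (SD, n = 2 each). The difference of -2.5 peaks had p = 0.333 in a two-sided exact permutation test, the smallest value that this design can give. Without LncMyoD-KD replicate 2 the difference was -1, and without LncMyoD-KD replicate 1 it was -4. Per 10000 peaks of the same list, the values were 7.26 and 6.85 in LncMyoD-KD and 7.30 and 7.37 in Ctrl, a difference of -0.277 (exact permutation p = 0.333).

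Of the 40 H3K27ac regions, 26 held a peak in all 4 libraries, which is 65% (interval 48.3 to 79.4%) beside 43.5% of all H3K27ac regions. The 1 LncMyoD-KD-only region, at Atf3, made up 2.5% beside a background of 0.768%, and 0 were Ctrl-only beside a background of 1.46%. A count of 0 among 40 allows up to 7.5% by the same division, and up to 8.81% by the interval. The 3 regions with peaks in 3 libraries all lacked a peak in LncMyoD-KD replicate 2, and 9 regions had a peak in a single library. H3K27ac peaks at AP-1 genes numbered 41 and 38 in LncMyoD-KD and 44 and 49 in Ctrl. The groups did not overlap as deposited, but had a value in common with a −log10 q of at least 5. The deposited means were 39.5 ± 2.12 in LncMyoD-KD and 46.5 ± 3.54 in Ctrl (SD, n = 2 each; difference -7, exact permutation p = 0.333). Without Ctrl replicate 2 the difference was -4.5. Per 10000 peaks the groups overlapped, at 7.58 and 9.51 in LncMyoD-KD and 9.51 and 9.24 in Ctrl (difference -0.829, exact permutation p = 0.667). A merged region can hold several peaks of 1 library. Counted by region, 35 and 27 held a peak in LncMyoD-KD and 30 and 34 in Ctrl, and the groups overlapped.

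**Figure D1:**
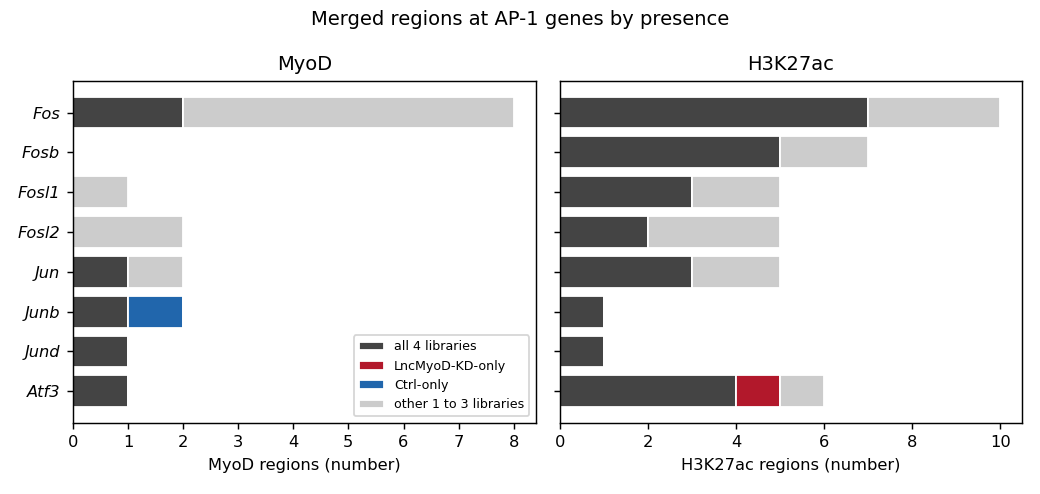
Number of merged MyoD regions (left) and H3K27ac regions (right) at each AP-1 gene, split by the libraries that hold a peak. Fos holds 8 of the 17 MyoD regions and 10 of the 40 H3K27ac regions, Fosb holds no MyoD region, and the group-only regions are 1 at Junb (Ctrl-only, MyoD) and 1 at Atf3 (LncMyoD-KD-only, H3K27ac).

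A MyoD region was present at 7 of the 8 genes, beside 40.7% of the 21631 genes on the autosomes and chromosome X. A MyoD region of all 4 libraries was present at 5 of 8, beside 23%. An H3K27ac region, and likewise one of all 4 libraries, was present at 8 of 8 genes, beside 64.4% and 54.6% of those 21631 genes. These shares depend on the stretch of genome in which a member is the nearest gene, which ran from 7.90 kb at Junb to 103 kb at Fos. Per 10 kb of that stretch, Junb had 2.53 MyoD regions, Jund 0.786 and Fos 0.777, and the other genes had 0 to 0.543. The Junb value rests on 2 regions, 1 of them Ctrl-only, and the Jund value on 1. H3K27ac regions per 10 kb were most frequent at Fosl1, with 2.71, and Fosb, with 2.53. Fos had 0.971 of them, and the other genes had 0.567 to 1.27. The annotated start lay inside an H3K27ac region of all 4 libraries at 6 of the 7 members with a listed start, with Atf3 as the exception. The share over all 17274 genes with a listed start was 41.2%. The start lay inside a MyoD region of all 4 libraries at 0 of 7, beside 3.24% of those 17274 genes. By distance, 13 of the 17 MyoD regions were more than 1 kb from the gene body, 8 were more than 10 kb away and 2 lay over it. The matching shares over all MyoD regions were not computed, and these distances also depend on the stretch of each gene.

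The 250 bases before the start are shown for Fos, Fosb, Jun and Junb, where the letters can be set beside the peaks. E-boxes, the motif CANNTG read by MyoD and other basic helix-loop-helix factors, are in capitals, as is the TGANNTCA match in Jun, a spacing variant of the AP-1 site. The sequences are RefSeq GRCm38.p6, the assembly that mm10 represents, printed 5′ to 3′ on the strand of the gene. Fos is on the plus strand at chr12:85473640-85473889. Fosb, Jun and Junb are on the minus strand, at chr7:19310046-19310295, chr4:95052223-95052472 and chr8:84978749-84978998.
Fos: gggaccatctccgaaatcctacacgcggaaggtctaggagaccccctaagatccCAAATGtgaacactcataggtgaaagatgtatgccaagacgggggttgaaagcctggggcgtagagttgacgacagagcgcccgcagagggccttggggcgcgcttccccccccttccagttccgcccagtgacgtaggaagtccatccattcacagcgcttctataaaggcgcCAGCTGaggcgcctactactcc
Fosb: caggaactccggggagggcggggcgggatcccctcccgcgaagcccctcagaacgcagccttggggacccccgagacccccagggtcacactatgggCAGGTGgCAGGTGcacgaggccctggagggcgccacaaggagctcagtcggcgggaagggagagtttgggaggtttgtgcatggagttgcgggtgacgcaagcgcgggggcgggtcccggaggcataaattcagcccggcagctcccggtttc
Jun: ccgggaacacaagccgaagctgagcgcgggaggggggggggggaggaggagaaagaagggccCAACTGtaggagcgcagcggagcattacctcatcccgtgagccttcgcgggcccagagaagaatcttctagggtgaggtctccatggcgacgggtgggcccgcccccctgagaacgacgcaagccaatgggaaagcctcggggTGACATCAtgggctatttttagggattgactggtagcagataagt
Junb: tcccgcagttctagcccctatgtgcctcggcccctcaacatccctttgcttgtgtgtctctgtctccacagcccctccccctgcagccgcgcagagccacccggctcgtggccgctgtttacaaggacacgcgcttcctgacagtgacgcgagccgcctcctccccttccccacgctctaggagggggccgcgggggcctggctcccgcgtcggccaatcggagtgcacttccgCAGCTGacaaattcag
On both strands, an E-box was found in 6 of the 7 windows available and in 62.8% of 21020 promoters. Fosl2 was the window without a match. The CAGCTG form, which is contained in CANNTG, was found at Fos, Junb and Jund and in 12.2% of promoters. The CAGGTG form was found at Fosb, with 2 matches, and in 17.1% of promoters. TGANNTCA was found at Jun, as TGACATCA, and at Jund, as TGAAATCA, beside 10.8% of promoters. The AP-1 site TGANTCA had 0 matches beside 6.18% of promoters, the cyclic AMP response element TGACGTCA, contained in TGANNTCA, had 0 beside 1.95%, and the CArG box had 0 beside 1.40%. These matches describe the letters of the windows alone. Bases farther from the start were not searched, so a count of 0 does not show that a gene lacks the motif.

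Fos, the archetypal immediate early gene of the family, held the most regions. Its strongest MyoD region lay 24.1 kb downstream of the start (chromosome 12, 85497572 to 85498406), with folds of 16.9 and 16.5 in LncMyoD-KD and 15.5 and 17.6 in Ctrl. The groups overlapped, and this was the highest MyoD value at any AP-1 gene in each of the 4 lists. Its median fold was higher than or equal to that of 92.8% of the MyoD regions of all 4 libraries. A MyoD region just upstream of the Fos start (85473309 to 85473783) had folds of 6.87 in LncMyoD-KD replicate 1, no peak in LncMyoD-KD replicate 2, and 7.93 and 8.61 in Ctrl. Its summits lay at base -355 from the start in LncMyoD-KD replicate 1, and at -399 and -307 in Ctrl replicates 1 and 2. These 3 peaks reached into the printed Fos window and covered its CAAATG, at bases -196 to -191, while the CAGCTG at -22 to -17 was covered by none of them.

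At the far end of the Fos stretch, a MyoD region 45.8 kb downstream of the start (85519481 to 85519887) had folds of 8.10 and 7.05 in LncMyoD-KD and 4.63 and 5.63 in Ctrl. Both LncMyoD-KD values were higher than both Ctrl values, the only case among the 6 MyoD regions of all 4 libraries, beside a background of 10.4% of regions. The reverse occurred at 0 of 6, beside 21%. The H3K27ac region around this MyoD region (85518502 to 85520344) had folds of 9.21 and 9.30 in LncMyoD-KD and 10.97 and 13.9 in Ctrl. Here both Ctrl values were higher, so the 2 antibodies were ordered in opposite ways at the same place.

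The other 5 MyoD regions at Fos lacked a peak in 1 or more libraries. A region at -18.3 kb, upstream of the start (85455374 to 85455764) had 7.45 in LncMyoD-KD replicate 2 and 5.29 and 6.62 in Ctrl, with no peak in LncMyoD-KD replicate 1. A region 53.4 kb downstream of the start and 49.8 kb from the gene end (85527080 to 85527416) had 6.26 and 5.49 in LncMyoD-KD and 7.29 in Ctrl replicate 2, with no peak in Ctrl replicate 1. The remaining 3 regions held a peak in 1 or 2 libraries, with folds of 4.79 to 5.62. These 3 were the MyoD regions at AP-1 genes with no H3K27ac region over them.

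The H3K27ac region over the Fos start (85471765 to 85474784, 3020 bp) had folds of 23.7 and 19.0 in LncMyoD-KD and 19.7 and 21.0 in Ctrl, and the groups overlapped. Its summits in all 4 libraries lay within the printed Fos window, at a median of base -168 from the start and within 35 bases of one another. H3K27ac regions of all 4 libraries also lay at -18.1 kb and -11.7 kb, upstream of the start, and at 24.4 kb and 45.6 kb, downstream of it. The region at -18.1 kb had 16.01 and 12.4 in LncMyoD-KD and 16.4 and 15.98 in Ctrl. In all, Fos had 7 H3K27ac regions present in all 4 libraries.

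**Figure D2:**
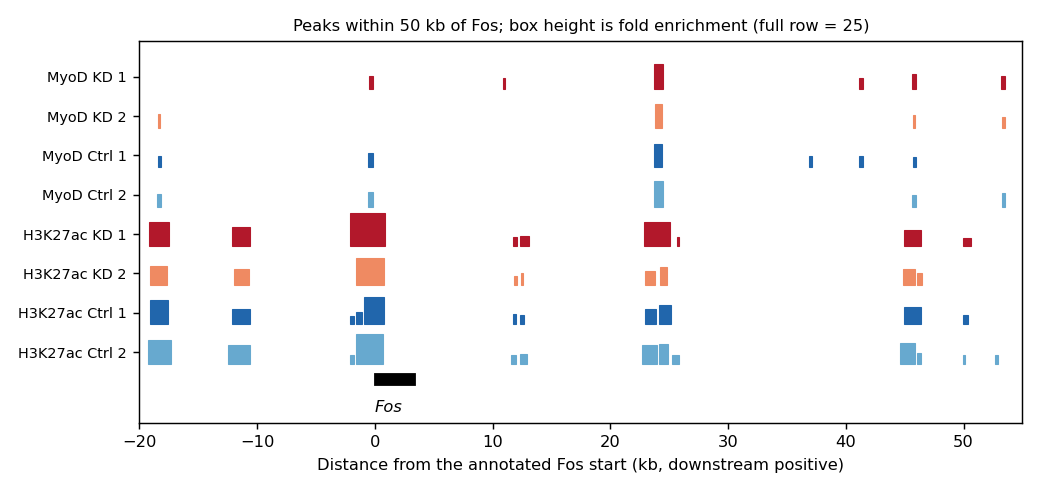
Peaks of each library around Fos, by distance from the annotated start in kb, with box width giving peak width and box height giving fold enrichment (a full row is 25), LncMyoD-KD rows above Ctrl rows and MyoD above H3K27ac. All 8 rows hold peaks at 24 kb, and the MyoD peak next to the start is missing in LncMyoD-KD replicate 2.

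Fosb encodes a Fos family protein with a strong transactivation domain. It had 0 MyoD regions in a stretch of 27.7 kb and 7 H3K27ac regions, 5 of them with a peak in all 4 libraries. The H3K27ac region over the start (chromosome 7, 19309350 to 19310525) had folds of 9.82 and 5.48 in LncMyoD-KD and 7.81 and 4.73 in Ctrl. The groups overlapped, and the replicates within a group differed more than the group means of 7.65 in LncMyoD-KD and 6.27 in Ctrl. Positions at Fosb count from the start of 1 of several listed transcripts. The H3K27ac summits over the start fell inside the printed Fosb window in all 4 libraries, within 9 bases of one another. The median summit, at base -154 from the start, lay 1 base from the pair of CAGGTG matches, which occupy bases -153 to -148 and -146 to -141, and no MyoD peak lay there. The strongest Fosb region lay past the gene end (19300813 to 19301361), at 8.73 and 8.28 in LncMyoD-KD and 6.69 and 9.17 in Ctrl. Upstream of the gene, a region at -7.19 kb from the start (19316195 to 19317539) had 7.82 and 6.50 in LncMyoD-KD and 4.65 and 4.73 in Ctrl, so LncMyoD-KD was higher without overlap. A region at -9.79 kb (19319600 to 19320017) had 3.82 and 4.21 in LncMyoD-KD and 4.28 and 5.20 in Ctrl, so there Ctrl was higher without overlap.

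Fosl1 and Fosl2 encode Fra-1 and Fra-2, Fos family proteins that lack a strong transactivation domain. The MyoD region of Fosl1 lay 2.14 kb from the gene body (chromosome 19, 5445003 to 5445557) and had 6.18 in LncMyoD-KD replicate 1 and 5.62 and 7.29 in Ctrl, with no peak in LncMyoD-KD replicate 2. The strongest H3K27ac region of Fosl1 (5447165 to 5452152, 4988 bp, over the gene) had 16.4 and 13.9 in LncMyoD-KD and 13.8 and 13.3 in Ctrl. Both LncMyoD-KD values were higher, with replicate 2 of LncMyoD-KD close to replicate 1 of Ctrl. Other H3K27ac regions over the Fosl1 body also overlapped Ccdc85b, the neighbouring gene, so 3 of the 5 could be counted for either.

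At Fosl2, an H3K27ac region of 11096 bp covered the start (chromosome 5, 32132699 to 32143794), as wide as or wider than 99.5% of the H3K27ac regions of all 4 libraries. Its folds were 20.9 and 17.5 in LncMyoD-KD and 21.4 and 21.0 in Ctrl. The percentiles of these peaks within their own lists overlapped, at 98.9 and 97.97 in LncMyoD-KD and 99.5 and 98.5 in Ctrl. Both MyoD regions of Fosl2 lay inside this acetylated stretch, and neither was present in all 4 libraries. The MyoD region at -2.67 kb from the start (32133672 to 32133983) had 5.88 in LncMyoD-KD replicate 2 and 4.63 and 6.95 in Ctrl. The other, 2.27 kb downstream of the start and over the gene (32138602 to 32138801), had a peak of 4.64 in Ctrl replicate 2 alone.

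Jun encodes c-Jun, the partner shared by most AP-1 dimers, and its H3K27ac had the highest mean fold of the family, with Fos higher in LncMyoD-KD replicate 1. The H3K27ac region over the gene (chromosome 4, 95049241 to 95055826, 6586 bp) had folds of 23.1 and 22.1 in LncMyoD-KD and 22.1 and 24.6 in Ctrl, and the groups overlapped. The MyoD region of all 4 libraries lay at -32.0 kb from the start (95083907 to 95084430), at 8.84 and 6.64 in LncMyoD-KD and 8.26 and 6.62 in Ctrl. The groups overlapped here too, and both antibodies met at this place in an H3K27ac region of 2347 bp with folds of 11.3 and 7.01 in LncMyoD-KD and 7.99 and 9.77 in Ctrl. Closer to the gene, at -1.63 kb from the start (95053762 to 95054013), a MyoD peak of 6.26 was listed in LncMyoD-KD replicate 1 alone.

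Junb encodes a Jun protein with weaker transactivation than c-Jun, and it held the single Ctrl-only MyoD region. The region lay 0.544 kb past the gene end, 2.61 kb downstream of the start (chromosome 8, 84975902 to 84976365), with no peak in either LncMyoD-KD library and folds of 7.27 and 5.79 in Ctrl. The −log10 q values of these peaks were 11.9 in Ctrl replicate 1 and 8.52 in Ctrl replicate 2. Upstream, at -2.54 kb from the start (84981031 to 84981537), a MyoD region of all 4 libraries had 10.3 and 4.70 in LncMyoD-KD and 8.59 and 7.62 in Ctrl. The LncMyoD-KD values lay on either side of the Ctrl values, with means of 7.51 ± 3.97 in LncMyoD-KD and 8.10 ± 0.688 in Ctrl (SD, n = 2 each). Both MyoD regions sat inside an H3K27ac region of 11858 bp (84974767 to 84986624), as wide as or wider than 99.6% of the H3K27ac regions of all 4 libraries and also over the neighbouring gene Prdx2. Its highest folds were 22.7 and 17.9 in LncMyoD-KD and 18.2 and 20.7 in Ctrl, and the groups overlapped. These highest summits lay at bases -2006 and -2013 from the start in LncMyoD-KD and -2025 and -1980 in Ctrl, away from the Ctrl-only MyoD region. An H3K27ac peak also lay over that region in all 4 libraries. In LncMyoD-KD replicate 1 it was the same long peak, and in LncMyoD-KD replicate 2 a separate peak of 7.14, against separate peaks of 16.2 and 14.5 in Ctrl. The summits of these separate peaks lay at base 1367 in LncMyoD-KD replicate 2 and at 2339 and 2551 in Ctrl. Their folds therefore belong to different places, and LncMyoD-KD replicate 1 gave no separate value.

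Jund encodes the Jun protein that is made most steadily across cell states. Its MyoD region lay over the gene, 2.29 kb downstream of the start (chromosome 8, 70699708 to 70700329), with folds of 13.3 and 10.2 in LncMyoD-KD and 13.9 and 12.9 in Ctrl. The groups overlapped, and the 4 summits lay within 67 bases of one another, the closest of the 6 MyoD regions of all 4 libraries, whose summits spread over up to 188 bases. The H3K27ac region around it (70696129 to 70700861) had 14.7 and 12.1 in LncMyoD-KD and 14.7 and 13.3 in Ctrl. The summits of these peaks lay at bases 877 and 1920 from the start in LncMyoD-KD and at 2102 and 2570 in Ctrl. These folds therefore belong to different places within the region. The table lists 2 transcripts for Jund and 1 start was used.

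Atf3 encodes a bZIP protein induced by stress, and its MyoD region lay far from the start. The MyoD region of all 4 libraries lay upstream, at -32.8 kb from the start (chromosome 1, 191215839 to 191216429), at 11.3 and 12.1 in LncMyoD-KD and 11.2 and 12.3 in Ctrl. The group means were nearly equal, at 11.7 ± 0.573 in LncMyoD-KD and 11.7 ± 0.721 in Ctrl (SD, n = 2 each). This MyoD region overlapped the edge of an H3K27ac region (191216318 to 191217331) by 112 bp, and its summit lay outside. The H3K27ac peak of Ctrl replicate 2 in that region did not reach the MyoD region. That H3K27ac region had 6.55 and 5.48 in LncMyoD-KD and 4.31 and 5.03 in Ctrl. The LncMyoD-KD folds were the higher ones, but the percentiles of these peaks within their own lists overlapped, at 66.9 and 49.0 in LncMyoD-KD and 45.3 and 53.1 in Ctrl.

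Next to it lay the single LncMyoD-KD-only H3K27ac region (191217355 to 191217748), at -34.2 kb from the start, with folds of 3.09 and 3.95 in LncMyoD-KD and no peak in either Ctrl library. Both values were low in their own lists, at percentiles 18.7 and 15.2. The strongest H3K27ac region of Atf3 lay at -41.4 kb from the start (191223879 to 191225257), at 13.3 and 11.3 in LncMyoD-KD and 11.2 and 11.5 in Ctrl, and the groups overlapped. Over the gene, an H3K27ac region of all 4 libraries (191182471 to 191183327) ended 6 bases short of the start, with 9.46 and 7.77 in LncMyoD-KD and 8.92 and 8.88 in Ctrl. On the other side of the start, an H3K27ac peak of 2.91 was listed in LncMyoD-KD replicate 1 alone.

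**Figure D3:**
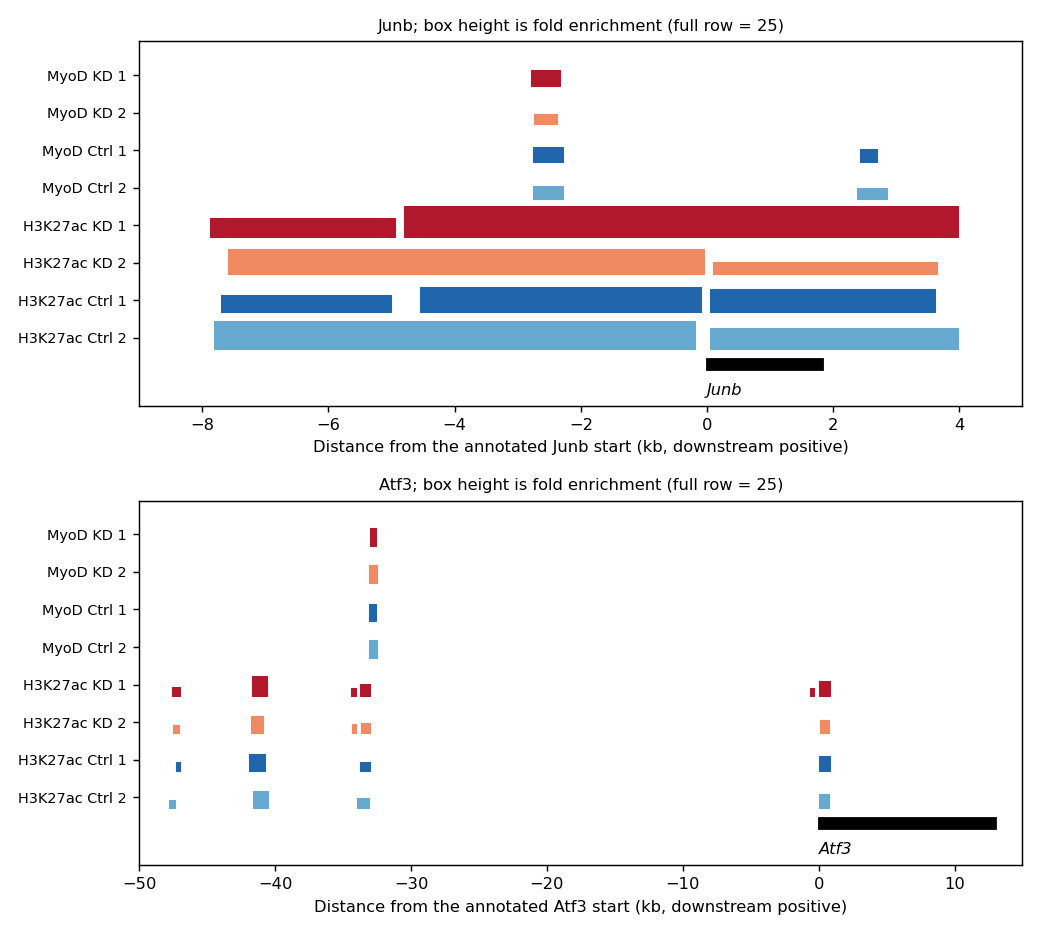
Peaks of each library around Junb (top) and Atf3 (bottom), by distance from the annotated start in kb, with box width giving peak width and box height giving fold enrichment (a full row is 25), LncMyoD-KD rows above Ctrl rows. At Junb the MyoD peak 2.61 kb downstream is in both Ctrl rows alone, within H3K27ac peaks of all 4 libraries; at Atf3 the MyoD peaks of all 4 libraries lie at -32.8 kb.

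Set in order by the strongest MyoD region of each gene, Fos led with 16.6 ± 0.855 over the 4 libraries, followed by Jund with 12.6 ± 1.63 and Atf3 with 11.7 ± 0.532 (SD, n = 4). The 4 libraries span both groups and lack a common scale, so this SD is not one of replicates of 1 condition. The lowest Fos value, 15.5, was above the highest Jund value, 13.9, whereas the Jund and Atf3 values overlapped. Junb followed with 7.81 ± 2.35 and Jun with 7.59 ± 1.13, whose values overlapped each other and lay below every value of Atf3. Within each list, Fos ranked first of the family, and Jund and Atf3 took the next 2 places. The median of the median folds was 9.92 over the 6 AP-1 regions of all 4 libraries and 8.35 over all 9958 such MyoD regions.

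**Figure D4:**
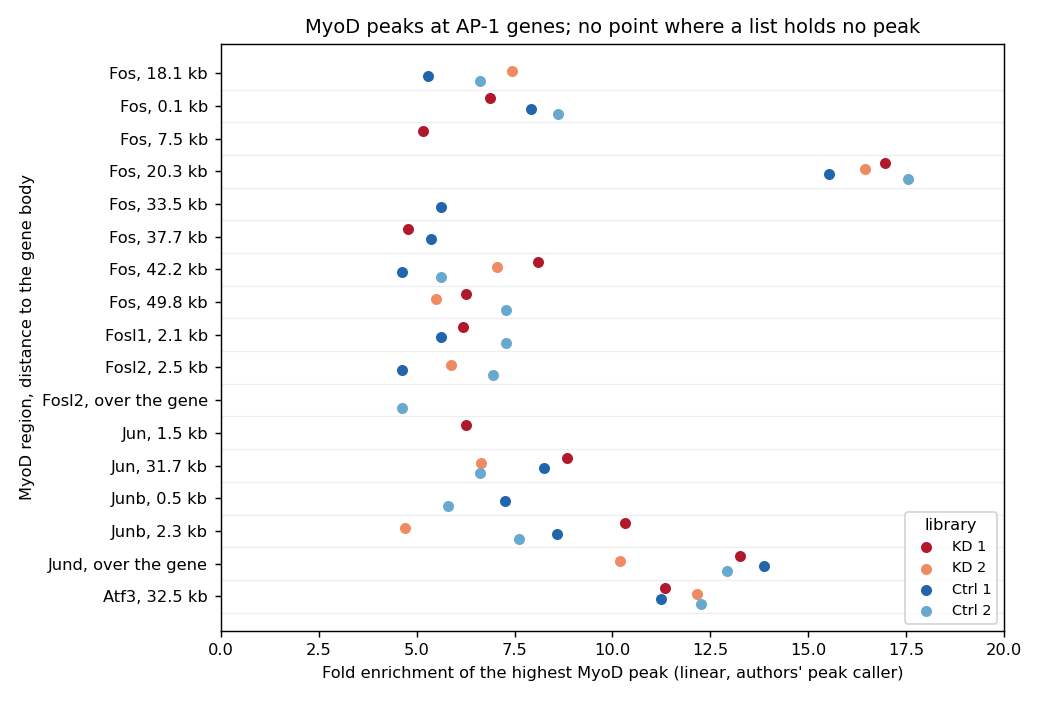
Fold enrichment of the highest peak of each MyoD region at AP-1 genes in the 4 libraries (KD, LncMyoD-KD), with the distance from the region to the gene body beside the gene name and no point where a list holds no peak. The Fos region 20.3 kb from the gene body lies between 15.5 and 17.6 in all 4 libraries, to the right of every other region.

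By the strongest H3K27ac region the order was another one. Jun averaged 22.96 ± 1.17, Fos 20.8 ± 2.05, Fosl2 20.2 ± 1.83 and Junb 19.9 ± 2.28 (SD, n = 4, again over both groups), and neighbours in this order overlapped. Fosl1 with 14.3 ± 1.38 lay below all 4 of these genes without overlap, and its values overlapped those of Jund, 13.7 ± 1.26. Atf3 followed with 11.8 ± 0.980, overlapping Jund, and Fosb was lowest in every list with 8.22 ± 1.08, without overlap with Atf3. The median of the median folds was 8.89 over the 26 AP-1 regions of all 4 libraries and 7.53 over all 26130 such H3K27ac regions. Among the 26 regions, LncMyoD-KD values were higher than Ctrl values without overlap at 4, at Fos, Fosb, Fosl1 and Atf3, beside a background of 14.1%. Ctrl values were higher without overlap at 3, at Fos, Fosb and Fosl2, beside 9.3%. Both counts lay near the background, and by percentile within each list the groups overlapped at the Atf3 and Fosl2 regions counted here.

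**Figure D5:**
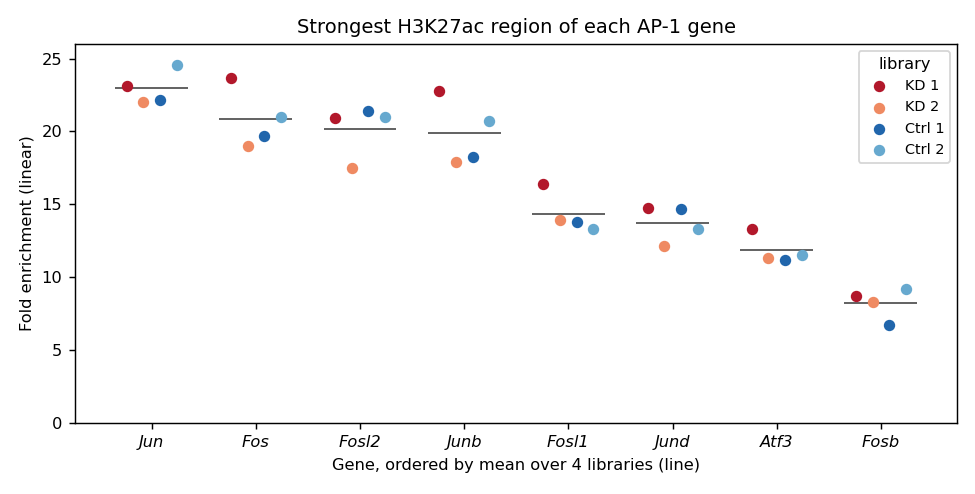
Fold enrichment of the strongest H3K27ac region of each AP-1 gene in the 4 libraries (KD, LncMyoD-KD), ordered by the mean over libraries (line). Jun, Fos, Fosl2 and Junb lie between 17.5 and 24.6, and Fosb lies between 6.69 and 9.17.

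MyoD and H3K27ac shared most of the MyoD places. Of the 17 MyoD regions, 14 overlapped an H3K27ac region, 82.4% (interval 56.6 to 96.2%) beside 69.5% of all MyoD regions, and 13 overlapped one present in all 4 libraries, 76.5% beside 55.9%. In 12 cases the MyoD region lay within the acetylated region over its whole length. The exceptions among the 14 were the Atf3 region at the edge of its H3K27ac region and the far Fos region, which met an H3K27ac peak of Ctrl replicate 2 alone. The Atf3 region is among the 13, although no H3K27ac peak of Ctrl replicate 2 lay over it. Seen from the other side, 11 of the 40 H3K27ac regions overlapped a MyoD region, 27.5% beside 26.4%. Counted by library, an H3K27ac peak of both libraries of the same group lay over 9 of 12 and 8 of 9 MyoD regions in LncMyoD-KD, and over 10 of 13 and 11 of 13 in Ctrl.

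The genes around AP-1 were counted the same way. The shares over all genes and regions given above, 40.7% and 23% of genes for MyoD, 40.8% of MyoD regions and 43.5% of H3K27ac regions, are the background here too. Of 13 AP-1 partners and related bZIP genes, 7 had a MyoD region and 3 one of all 4 libraries, with 8 such regions among 18, near the background. Jdp2, a repressor that dimerises with Jun and neighbours Fos on chromosome 12, led with 5 of 5 MyoD regions in all 4 libraries, the one of highest median fold at 11.7 and 15.3 in LncMyoD-KD and 16.5 and 13.6 in Ctrl. Mafk and Nfe2l2 followed, and all 4 values of Jdp2 were above all 4 of either. Their H3K27ac regions numbered 68, with 29 in all 4 libraries, 0 LncMyoD-KD-only and 2 Ctrl-only, at Jdp2 and Mafg.

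Among 15 other immediate early genes, 9 had a MyoD region and 8 one of all 4 libraries, with 13 of 21 regions in all 4, 0 LncMyoD-KD-only and 1 Ctrl-only at Dusp6, a phosphatase of ERK. Btg2, an antiproliferative gene, was highest with 18.2 and 18.4 in LncMyoD-KD and 19.8 and 22.5 in Ctrl. Both Ctrl folds were higher, an order found at 21% of all MyoD regions of all 4 libraries. Srf, the serum response factor, and Ier5 were next. All 15 had an H3K27ac region, and 36 of their 69 H3K27ac regions were present in all 4 libraries, with 0 group-only in either direction. Of 9 upstream kinases and ternary complex factors, 3 had a MyoD region, Elk3, Mapk9 and Mapk10, and 2 of 7 regions were present in all 4 libraries. Elk3, a ternary complex factor, had 16.9 and 15.3 in LncMyoD-KD and 12.9 and 15.9 in Ctrl, and its groups overlapped. In this list the H3K27ac regions numbered 37, with 14 in all 4 libraries and a LncMyoD-KD-only one at Elk3.

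Of 9 known AP-1 target genes, 3 had a MyoD region, Hmox1, Plau and Ccnd1, and 5 of 7 regions were present in all 4 libraries with 0 group-only. The region of highest median fold at Hmox1, haem oxygenase 1, had 21.7 and 21.6 in LncMyoD-KD and 16.4 and 22.3 in Ctrl. Plau, the urokinase gene, had 11.1 and 10.6 in LncMyoD-KD and 20.2 and 14.9 in Ctrl. Both Ctrl folds were higher, as at Btg2, beside the background of 21% of MyoD regions of all 4 libraries. The Ccnd1 values, 9.21 and 13.3 in LncMyoD-KD and 19.8 and 12.9 in Ctrl, overlapped. Of 33 H3K27ac regions at these genes, 17 held a peak in all 4 libraries, with 0 LncMyoD-KD-only and 0 Ctrl-only.

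The 50 kb limit decided a few regions at its edge. Just inside it were the Fos MyoD region at 49.8 kb, described above, and a Fos H3K27ac peak at 49.3 kb, of 3.75 in Ctrl replicate 2 alone. Just outside it were a MyoD region 53.0 kb from Jun, with 5.16 in LncMyoD-KD replicate 1 and 3.97 in Ctrl replicate 2, and an H3K27ac peak 50.03 kb from Fos, of 6.21 in Ctrl replicate 2 alone.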

How the data were processed

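Peak lists of 8 ChIP libraries were used, 1 per library, with replicates kept apart. Per the submitters' processing notes, the build was mm10 and the tools included MACS2 2.1.1, bedtools 2.26.0, SAMtools 1.3, Bowtie2 2.3.2 and Picard 2.9.2; their options are not given there. The fold enrichment of each deposited peak is a linear ratio at the summit, set by the authors' caller. Per peak, the deposited columns further hold a score and the p-value and q-value as −log10. No read counts were used, so depth is unknown and its precision cannot be given.

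For each antibody, overlapping or touching peaks of its 4 libraries were merged (gap 0 bp), and at least 1 shared base counted as presence. Gene bodies came from the RefSeq table of GRCm38.p6. That table has no strand or exons, so starts and strands came from RefSeq promoter windows, 1 per member, which matched 7 of the 8 members; for Fosl1 distances are to the gene body. Motifs were searched in the 250 bases before the start. The planned search around MyoD summits was not run, and TGANNTCA was added after the sequences were seen. Peak numbers were compared by exact permutation over the 6 assignments of 4 libraries. All other counts are descriptions, those of the members beside the share over all regions or genes. Marker counts, counts by distance, whole-length overlaps and overlaps by library have no such share. The members and lists were chosen with earlier results of these data known.

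By the fixed rule, regions named were, per member and antibody, the one with the highest median fold, those within 1 kb of the start or over it, group-only regions, and MyoD regions of all 4 libraries with a fold of at least 10. The other regions described were chosen after their values were seen. Genes of the other lists were named for a group-only region or a MyoD fold among the top 3 of the list. Some group-only results of these lists are not reported here. Python 3.11.15, pandas 2.3.3, numpy 2.4.6, scipy 1.17.1 and matplotlib 3.10.9 were used, and the merging and assignment steps were tested on simulated data.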

Additional observations from a re-analysis of the deposited data

How the results depend on the processing

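Results were recomputed with peaks of −log10 q of at least 5, with equal numbers of peaks per library, with peaks within 1000 bp merged, with a 10 kb limit and with 1 library left out. With the 10 kb limit the MyoD regions of all 4 libraries numbered 2 of 9, against 6 of 17. The H3K27ac ones numbered 16 of 23, against 26 of 40. Fewer regions were counted, and the share of all 4 libraries was lower for MyoD and slightly higher for H3K27ac. The LncMyoD-KD-only H3K27ac region at Atf3 was lost at the stricter q, with equal peak numbers and with 1000 bp merging, each of which left 0. The groups had a MyoD peak number in common at the stricter q (difference -2), with equal peak numbers (-1.5) and within 10 kb (-2), and an H3K27ac one at the stricter q (-4), each with exact permutation p = 0.667. The differences in peak number kept a negative sign throughout, at -4 to -1 for MyoD and -9.5 to -4.5 for H3K27ac when 1 library was left out. With the replicate block they were -2.5 and -7 (exact permutation p = 0.5 each, the smallest possible). The H3K27ac differences count peaks, whereas the number of H3K27ac regions with a peak overlapped between the groups. Libraries with the same number deviated together by correlations of 0.103 for MyoD and 0.155 for H3K27ac, and with 2 pairs they share only a number. The share of MyoD regions with H3K27ac ran from 70.6 to 88.9%. The unknown depth and the shorter lists of LncMyoD-KD replicate 2 limit what a missing peak shows.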
